A study of Mus musculus with 20 samples.

Results

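The trefoil factors Tff1, Tff2 and Tff3 are the members described here, chosen as the probes that the array files name Tff1, Tff2 or Tff3. They make up 3 of the 27573 genes on the array, with 1 probe each, and all 3 were among the 17076 genes that passed a filter on dim signals. Trefoil factors are small secreted peptides built around a looped, disulfide-bonded domain, and they are released with mucus and help the epithelium close over small wounds. In the healthy gut Tff3 is the trefoil factor of goblet cells in the small intestine and colon, whereas Tff1 and Tff2 are known mainly from the stomach, where pit cells make Tff1 and mucous neck cells make Tff2, and Tff2 is also made by the glands of the duodenum. Spdef is an ETS-family transcription factor needed for the maturation of goblet and Paneth cells.

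The study compared whole gut tissue of Spdef-/- (KO) and wild type mice on two-colour arrays that carried KO RNA in one dye and wild type RNA in the other. The groups were colon of adult mice (postnatal day 30, 3 pairs of pools), small intestine of adult mice (postnatal day 30, 2 pairs), fetal colon (E18.5, 2 pairs) and fetal small intestine (E18.5, 3 pairs), each with a KO pool and a wild type pool of 2 to 3 littermates. Every pair was hybridised in both dye orders, which gave 20 arrays, and the 2 dye orders of a pair were averaged. The labels give no strain and no sex, and they name no allele other than Spdef-/-. Because tissue RNA was measured, fewer cells of a type and less RNA per cell cannot be told apart in any result below. Nothing in the labels says how the litters of a group were related, so the p-values measure the spread between these pools.

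Spdef, the targeted gene, was lower in KO on 20 of 20 arrays. Its log2 ratio of KO over wild type ran from -3.96 to -3.30 in the adult colon pairs, was -1.68 and -2.86 in the adult small intestine pairs, was -1.63 and -2.77 in the pairs labelled fetal colon, and was -1.45, -1.96 and -3.42 in the pairs labelled fetal small intestine. The offset added in background correction shrinks ratios at low signals, so their sizes do not rank the groups. Processed signals were 41.7 in KO and 1044 in wild type of adult small intestine 1. In adult colon 1 they were 224 and 3048. The share of probes with a signal well above background ranged from 39.7% to 71.6% over the channels, and the number of arrays limits the precision. Pairs 1 and 2 of fetal small intestine differed by less than the noise between arrays (their ratio of between-pair to within-pair variance was 0.551, against 1.45 to 6.83 for all other pairs of a group) and were counted as 1 replicate, so 9 replicates entered each test.

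Regional markers went against the tissue labels of 2 fetal pairs. In the pair labelled fetal small intestine 3, Hoxb13, a homeobox gene of the hindgut, had a log2 intensity of 11.6 in both KO and wild type, and Lct, the small intestinal lactase, had 8.98 in KO and 8.76 in wild type. In the pair labelled fetal colon 1, Hoxb13 was below background in both genotypes, Lct had 16.4 in both, and Onecut2, a transcription factor of the upper small intestine, had 11.4 in both. The other 3 fetal pairs matched their labels: Hoxb13 had 11.5 in KO and 11.1 in wild type of fetal colon 2 and was below background in fetal small intestine 1 and 2. Over the whole list of 13 small intestine markers, the mean log2 intensity was 9.33 in KO and 9.37 in wild type of the pair labelled fetal small intestine 3, and 13.3 in KO and 13.4 in wild type of the pair labelled fetal colon 1. The list of 10 colon markers had means of 9.45 in KO and 9.47 in wild type of the first of these pairs, and of 8.16 in KO and 8.14 in wild type of the second. Both pairs lay on the same slide, which held no other array. Groups below follow the labels, and the trefoil factors are given by pair. Their fetal KO effects, with those of the mucus genes named beside them and of Glo1, are also given without that slide. Fetal fits of Paneth, stomach, receptor and trefoil domain genes, and fetal counts on chromosome 17, are given by label only. The adult minus fetal difference of Cxcr4 is the exception.

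**Figure D1:**
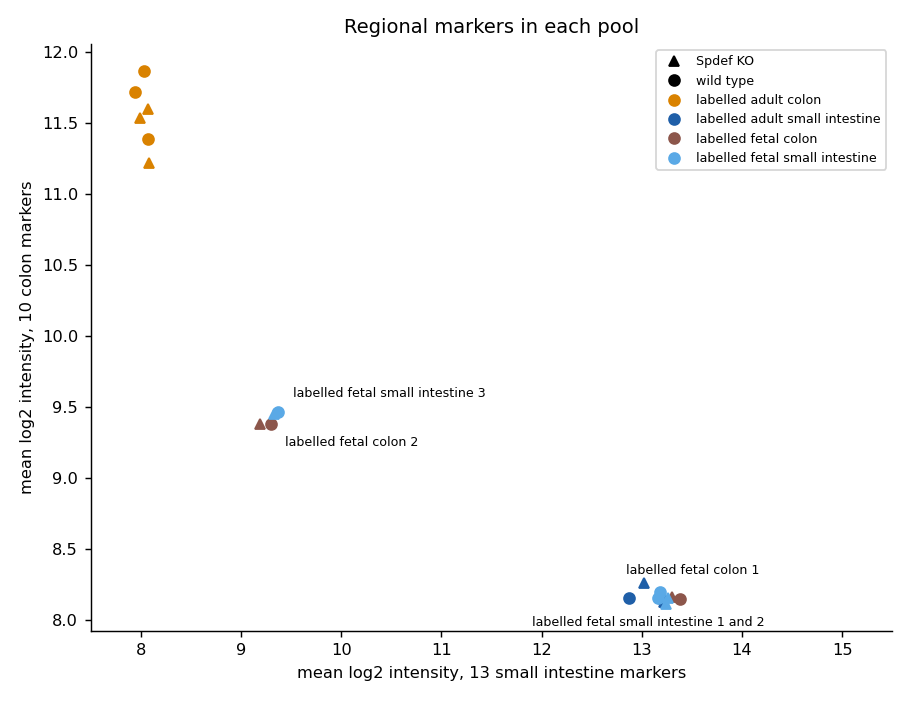
Mean log2 intensity of 13 small intestine markers (horizontal axis) against that of 10 colon markers (vertical axis) in each KO pool (triangles) and wild type pool (circles), coloured by the tissue in the label. The pools labelled fetal small intestine 3 lie beside those of fetal colon 2, and the pools labelled fetal colon 1 lie beside those of fetal small intestine 1 and 2.

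The 3 genes lie side by side on chromosome 17, in build mm8, as the files give it. The Tff3 probe is at chr17:30852346-30852405, the Tff2 probe at chr17:30869323-30870147 and the Tff1 probe at chr17:30888538-30888597, all on the minus strand. The gap between neighbouring probes is 16.9 kb from Tff3 to Tff2 and 18.4 kb from Tff2 to Tff1. The Tff2 probe covers 825 bases of the genome, against 60 for the other 2, so its target is split by an intron. The Spdef probe, at chr17:27442294-27442353, is 3.41 Mb from Tff3, 3.43 Mb from Tff2 and 3.45 Mb from Tff1, which places the trefoil factors in genetic linkage with the targeted gene.

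Tff3, the goblet cell trefoil factor, was higher in KO than in wild type in adult colon and lower in KO in every fetal pair. In adult colon its log2 intensity was 16.97, 16.89 and 16.94 in the KO pools of pairs 1, 2 and 3, against 16.61, 16.15 and 16.37 in the wild type pools. The lowest KO pool lay above the highest wild type pool, and Tff3 was higher in KO on 6 of 6 arrays, by a log2 ratio of 0.18 to 0.96. The KO pools were closer to each other (16.93 ± 0.04, SD, n = 3) than the wild type pools (16.38 ± 0.23, SD, n = 3). Tff3 rose by 0.56 ± 0.09 (log2 ratio ± standard error), or 1.47-fold, in KO adult colon (limma, adjusted p = 0.00998). In that comparison 9.59% of all 17076 genes passed the adjusted p of 0.05, and 3.93% passed as higher in KO. Of the 3 trefoil factors, only Tff3 passed it. The call was lost with each group fitted alone (0.56, adjusted p = 0.0580) and with median centring in place of loess (0.53, adjusted p = 0.699). In pairs 1, 2 and 3 the median log2 ratio was -0.26, -0.65 and -0.23 over 5 smooth muscle genes. Over 4 enterocyte genes it was 0.11, 0.05 and 0.15. The part of tissue make-up in the Tff3 value was not tested.

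In adult small intestine, Tff3 had a log2 intensity of 16.61 and 16.06 in the KO pools of pairs 1 and 2, against 16.77 and 16.28 in the wild type pools. The 2 genotypes overlapped between pairs, but within each pair KO was the lower, on 4 of 4 arrays. The log2 ratio was -0.19 ± 0.10 and did not pass the test (limma, adjusted p = 0.533). No trefoil factor passed in adult small intestine, where 0.398% of all genes did. The KO effect on Tff3 differed between adult colon and adult small intestine by 0.75 ± 0.13, which did not pass as a difference (limma, adjusted p = 0.119; 0.158% of all genes passed). It passed with every array as an observation, in a fit with a dye effect and a random effect of each replicate (0.75, adjusted p = 0.0140). The 2 dye orders of a pair are repeat measurements of the same pools. More genes passed in that fit, with 3048 called in adult colon against 1638. Adult colon pair 2 and adult small intestine pair 2 shared a slide, and within it the difference was 0.95.

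In the fetal pools, Tff3 was lower in KO on 10 of 10 arrays, by a log2 ratio of -0.81 to -0.18. In the pairs labelled fetal colon 1 and 2 its log2 intensity was 15.39 and 16.45 in KO, against 15.98 and 16.71 in wild type. In the pairs labelled fetal small intestine 1, 2 and 3 it was 15.38, 15.37 and 16.22 in KO, against 16.10, 16.16 and 16.76 in wild type. Both genotypes were higher in the 2 pairs with colon markers (fetal colon 2 and the pair labelled fetal small intestine 3) than in the 3 pairs with small intestine markers. The genotypes overlapped across pairs but not within a pair. The log2 ratio was -0.43 ± 0.10 in the groups labelled fetal colon (adjusted p = 0.302) and -0.65 ± 0.10 in those labelled fetal small intestine (adjusted p = 0.0516), and neither passed the test in limma. Of all genes, 0.287% passed in fetal colon and 0.439% in fetal small intestine, and no trefoil factor was among them. With all fetal pairs taken as 1 group regardless of tissue label, a choice made after the markers were seen, Tff3 fell by 0.54 ± 0.08 in KO (limma, adjusted p = 0.0324), where 0.299% of all genes passed and 0.246% passed as lower in KO. That call was lost without the slide that held the pairs labelled fetal small intestine 3 and fetal colon 1 (-0.51 ± 0.13, adjusted p = 0.963, with 0.0586% of all genes called). By label and without that slide, the log2 ratio was -0.26 in fetal colon (adjusted p = 1.00) and -0.75 in fetal small intestine (adjusted p = 0.254).

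The KO effect on Tff3 was 0.72 ± 0.10 higher in the adult than in the fetal groups (limma contrast, adjusted p = 0.0231), a difference that 1.08% of all genes passed. Tff1 and Tff2 did not pass it, with differences of 0.31 ± 0.15 for Tff1 (adjusted p = 0.314) and 0.41 ± 0.61 for Tff2 (adjusted p = 0.764). Between adult colon and fetal colon alone, a contrast added after the data were seen, the difference for Tff3 was 0.98 ± 0.13 (limma, adjusted p = 0.0316; 0.644% of all genes passed). Fetal colon held the pair with small intestine markers there, and without its slide the difference did not pass (0.82 ± 0.15, adjusted p = 0.232). Adult colon pair 3 and fetal colon pair 2, which shared a slide and whose regional markers matched their labels, differed by 0.83. The stage difference did not pass without the slide of the pairs labelled fetal small intestine 3 and fetal colon 1 (0.69, adjusted p = 0.175), nor without adult small intestine 1 or 2, fetal colon 1 or 2 or fetal small intestine 3 alone (lowest value over all replicates left out in turn 0.64, highest adjusted p = 0.0724). It was also lost with median centring (0.64, adjusted p = 0.999) and in the deposited series table (0.72, adjusted p = 0.0650). Averaged over the 4 groups, Tff3 had a log2 ratio of -0.18 ± 0.05 (adjusted p = 0.133), where 1.79% of all genes passed and no trefoil factor did. Small intestine minus colon gave -0.49 ± 0.10 (adjusted p = 0.203), where 0.17% of all genes passed and no trefoil factor did. With every array as an observation it passed (-0.49, adjusted p = 0.0302).

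**Figure D2:**
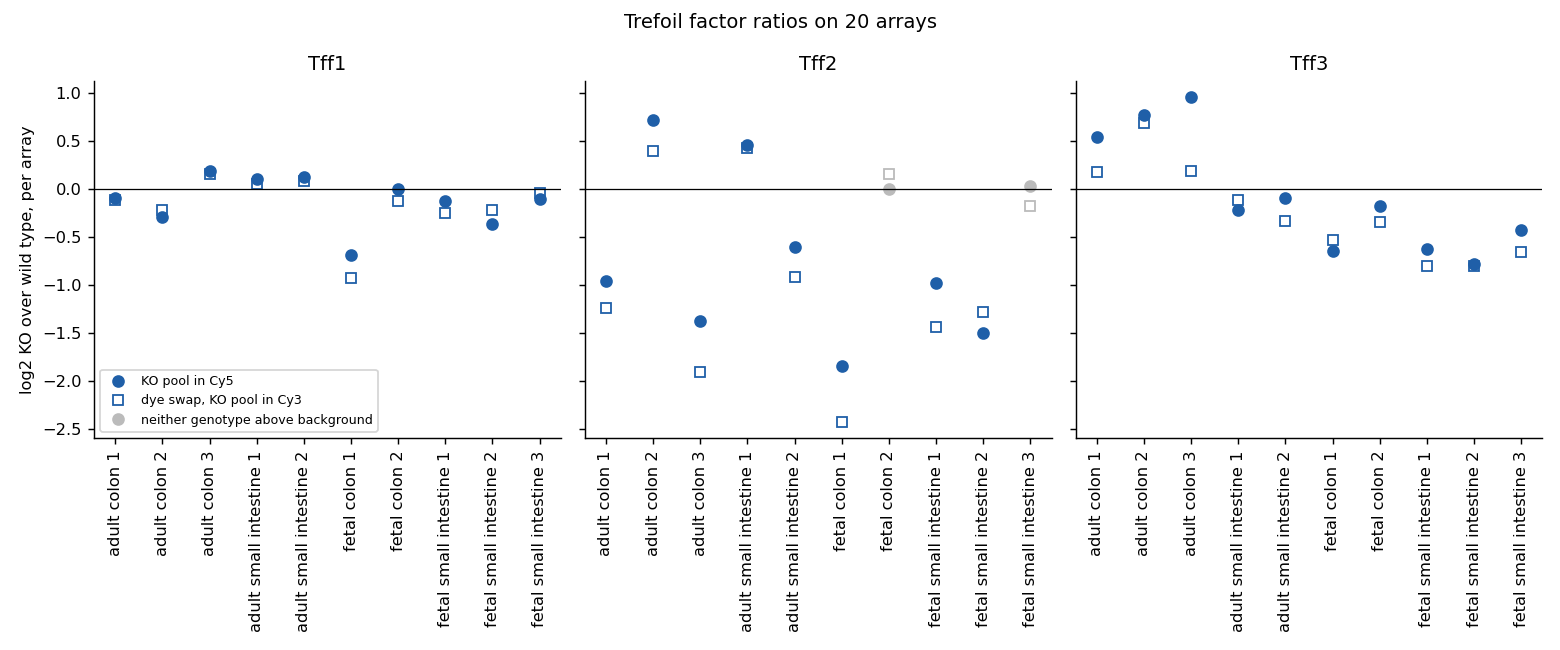
Log2 ratio of KO over wild type of Tff1, Tff2 and Tff3 on each of 20 arrays, by pool pair as labelled, with the KO pool in Cy5 (filled) or in Cy3 (open), and grey where neither genotype was above background. For Tff3 all 6 adult colon arrays lie above 0 and all 10 fetal arrays below it.

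Tff3 was among the brightest probes of the array. The scanner software had taken it from the low-gain scan, scaled up, in both channels on 20 of 20 arrays, which was so for 1.41% of all probe spots. It was saturated on 0 arrays and flagged as an outlier on 0. Its processed signal ran from 50199 to 188861 in KO pools and from 77790 to 163703 in wild type pools. The 2 dye orders of adult colon pair 3 differed more than those of any other pair, with log2 ratios of 0.96 with KO in Cy5 and 0.19 with KO in Cy3.

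Genes listed for mucus and goblet cells other than Tff3 fell or did not pass the test in adult colon. Of 22 genes listed for mucus and goblet cell products, 20 were tested. In KO, 10 fell in adult colon, 5 in adult small intestine, 7 in fetal colon and 8 in fetal small intestine, and 0 rose in any of them. Over all genes, 5.66% fell and 3.93% rose in adult colon, 0.234% fell and 0.164% rose in adult small intestine, 0.176% fell and 0.111% rose in fetal colon, and 0.31% fell and 0.129% rose in fetal small intestine. Several of these genes, such as Tpsg1, Hgfac and Slc12a8, were listed because earlier results of these arrays had shown them lower, so the counts are not independent evidence of a direction. The median log2 ratio of the list was -0.38 in adult colon, -0.35 in adult small intestine, -0.58 in fetal colon and -0.79 in fetal small intestine, against medians within 0.01 of 0 over all genes. A setting added after the data were seen left out the slide of the pairs labelled fetal small intestine 3 and fetal colon 1. With 1 replicate left in each fetal group, the list median was -0.77 in fetal colon and -0.50 in fetal small intestine. Zg16 then had a log2 ratio of 1.12 in fetal colon.

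Genes listed for Paneth cells, which make antimicrobial peptides at the crypt base, rose or did not pass in KO adult colon and fell or did not pass in the other groups. Of 9 listed, 8 were tested. In KO, 2 rose and 0 fell in adult colon (median log2 ratio 0.26), 0 rose and 5 fell in adult small intestine (-1.38), 0 passed in fetal colon (-0.22), and 0 rose and 2 fell in fetal small intestine (-0.77). Over all genes, 3.93% rose and 5.66% fell in adult colon, and 0.234% fell in adult small intestine. In the fetal groups, 0.287% of all genes passed in fetal colon and 0.31% fell in fetal small intestine. The 2 that rose in adult colon were Mmp7, the protease that activates mouse defensins, by 2.91 (limma, adjusted p = 3.2e-05), and Itln1, a lectin that binds microbial sugars, by 3.17 (adjusted p = 0.0070). Per pair the log2 ratio was 2.84, 2.53 and 3.37 for Mmp7 and 2.58, 2.17 and 4.76 for Itln1 in adult colon pairs 1, 2 and 3. Ang4, an antimicrobial ribonuclease, had 2.33, 0.37 and 4.07 in the same pairs (2.26 in the fit, adjusted p = 0.0565). The other 5 genes, lysozyme 1 and 4 defensins, had 0.015 to 0.28 in adult colon and did not pass. Of the 8 genes, 4 were well above background in wild type of each adult colon pair, and 4, 4 and 6 in KO. Ratios near 0 and the list median there therefore include genes without a measured signal, and do not show unchanged expression. Tff3 was higher in KO in the same 3 pairs, and the part of these cells in its value was not tested.

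Muc2, which encodes the gel-forming mucin of goblet cells, fell in KO in 3 groups, with log2 ratios of -0.99 in adult colon (adjusted p = 0.0127), -1.80 in fetal colon (adjusted p = 0.0135) and -1.74 in fetal small intestine (adjusted p = 0.0105), and had -0.64 in adult small intestine (adjusted p = 0.262). Agr2, a disulfide isomerase of the endoplasmic reticulum needed to make mucin, fell in all 4 groups, with -0.56 in adult colon (adjusted p = 0.00677), -0.62 in adult small intestine (adjusted p = 0.0441), -1.13 in fetal colon (adjusted p = 0.00388) and -1.15 in fetal small intestine (adjusted p = 0.00235). Its fall was smaller in the adult than in the fetal groups, by 0.55 (adjusted p = 0.0375), and the same difference for Muc2 was 0.96 (adjusted p = 0.0618). Tpsg1, a membrane-anchored tryptase, fell in all 4 groups, with -1.16 in adult colon, -1.17 in adult small intestine, -1.59 in fetal colon and -1.56 in fetal small intestine (adjusted p between 0.000822 and 0.00615), and its probe is on chromosome 17, at -2.34 Mb from that of Spdef, the minus sign marking the side away from Tff3. Hgfac, a protease that activates hepatocyte growth factor, fell in all 4, with -1.05, -1.04, -1.35 and -1.40 in the same order of groups. Galnt12, which starts mucin O-glycans, also fell in all 4, with -0.87, -1.21, -1.14 and -1.17 in that order. Spink4, a secreted protein of goblet cells, fell in adult colon, with -0.93 (adjusted p = 0.0203), and in fetal small intestine, with -1.48 (adjusted p = 0.0345). Clca1, a secreted metalloprotease of goblet cell mucus, had 0.42 in adult colon (adjusted p = 0.400), and Zg16, a lectin of mucus, had -0.29 (adjusted p = 0.540). All of these values are from the limma fit over all genes. Without the slide of the pairs labelled fetal small intestine 3 and fetal colon 1, each fetal group held 1 replicate, so no call is given there. The fetal colon values were then -2.18 for Muc2, -1.25 for Agr2, -1.66 for Tpsg1, -1.36 for Galnt12 and -1.43 for Hgfac. In fetal small intestine they were -0.95 for Agr2, -1.52 for Muc2, -1.43 for Tpsg1, -1.28 for Hgfac, -0.98 for Galnt12 and -1.36 for Spink4. The adult minus fetal difference of Agr2 was then 0.51 (adjusted p = 0.146).

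Tff2 was variable between the pairs of every group, and no group passed the test for it in the fit over replicates. Its probe was well above background on 14 of 20 arrays in the KO channel and on 16 of 20 in the wild type channel. In adult colon its log2 intensity was 9.76, 8.72 and 9.29 in KO of pairs 1, 2 and 3, against 10.86, 8.16 and 10.93 in wild type, so that pairs 1 and 3 were lower in KO and pair 2 was higher. In adult small intestine it was 9.23 and 7.08 in KO, against 8.78 and 7.84 in wild type, and the KO pool of pair 2 was not well above background. In the pairs labelled fetal colon it was 8.63 and 7.07 in KO, against 10.77 and 6.99 in wild type. In those labelled fetal small intestine it was 8.67, 8.57 and 6.94 in KO, against 9.87, 9.96 and 7.02 in wild type.

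In fetal colon 2 and in the pair labelled fetal small intestine 3, the 2 fetal pairs with colon markers, Tff2 was not well above background in either genotype on any array. In the 3 fetal pairs with small intestine markers it was detected on every array and lower in KO on 6 of 6. The log2 ratio was -2.14 in the pair labelled fetal colon 1 and -1.21 and -1.39 in fetal small intestine pairs 1 and 2, the last 2 being measurements that did not differ beyond array noise. In the fit by label, Tff2 had a log2 ratio of -0.73 ± 0.52 in adult colon (adjusted p = 0.406), -0.16 ± 0.63 in adult small intestine (adjusted p = 0.963), -1.03 ± 0.63 in fetal colon (adjusted p = 0.974) and -0.69 ± 0.63 in fetal small intestine (adjusted p = 0.994). Averaged over the groups it had -0.65 ± 0.30 (adjusted p = 0.331), and it passed in 1 alternative, with every array as an observation (-0.67, adjusted p = 0.0479). Without the slide of the pairs labelled fetal colon 1 and fetal small intestine 3, the fetal colon value was 0.08 and the fetal small intestine value -1.30, since 1 pair or 1 replicate was left in each.

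Pancreatic genes varied between the adult pairs, as Tff2 did. All 13 listed genes of pancreatic acinar cells that are on the array were tested. In adult colon 0 of the 13 passed, against 9.59% of all genes, and in adult small intestine 0 of 13, against 0.398%. With so few genes, these counts give no result about the list. Of the 13, 6 to 13 of them were well above background in wild type and 7 to 13 in KO, depending on the pair. Their median log2 ratio of KO over wild type was -2.45, -0.05 and -2.92 in adult colon pairs 1, 2 and 3, where Tff2 had -1.10, 0.56 and -1.64. It was 0.93 and -3.54 in adult small intestine pairs 1 and 2, where Tff2 had 0.44 and -0.76. The mean log2 intensity of the list was 11.9, 8.0 and 12.5 in KO of the adult colon pairs, against 14.3, 8.06 and 15.4 in wild type, and 13.8 and 8.04 in KO of the adult small intestine pairs, against 12.9 and 11.6 in wild type. The part of pancreatic tissue in the Tff2 values was not tested. In adult colon pair 2, the list stood near the level of fetal pools, pancreatic lipase (Pnlip) was not well above background in either genotype, and Tff2 was higher in KO on both arrays. In the fetal pairs the median of the list lay between -0.01 and 0.21, Pnlip was below background in every pool, and the fall of Tff2 in 3 pairs had no counterpart in it.

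Genes known from the stomach were at or near background in most pools. Of 12 listed stomach genes on the array, 2 to 6 were above background in a pool of either genotype, and the mean log2 intensity of the list ran from 7.25 to 7.52 in KO and from 7.23 to 7.61 in wild type. Gkn1, a secreted protein of gastric surface cells, was below background in every pool. Muc5ac, the gastric surface mucin, and Muc6, the mucin of gastric and duodenal glands, had log2 intensities of 7.15 to 7.95 throughout, and neither passed the test in any group. Gkn3, a gastrokine, was detected in every pool. It had log2 intensities of 9.18 in KO and 10.99 in wild type of the pair labelled fetal colon 1, of 9.26 in KO and 10.13 in wild type of fetal small intestine 1, and of 9.25 in KO and 10.24 in wild type of fetal small intestine 2. These are the 3 fetal pairs in which Tff2 was detected and lower in KO. In all other pairs Gkn3 lay between 7.47 and 8.79 in KO and between 7.45 and 8.74 in wild type. Tff2 was also lower in KO in adult colon 1 (-1.10), adult colon 3 (-1.64) and adult small intestine 2 (-0.76). Gkn3 had log2 ratios of -0.18, -0.11 and 0.04 in these adult pairs. In the fit by label the log2 ratio of Gkn3 was -0.94 in fetal colon (adjusted p = 0.650) and -0.45 in fetal small intestine (adjusted p = 0.958). Gkn2 was detected at a low level in wild type of the same 3 fetal pairs (7.38 to 7.47) and in no other wild type pool. Anxa10, an annexin of the gastric epithelium, had 7.93 in KO and 8.19 in wild type of the pair labelled fetal colon 1, 8.15 and 8.15 in KO of fetal small intestine 1 and 2, against 8.19 and 8.11 in wild type, and at most 7.35 in any other pool. Vsig1, a junctional protein of the stomach, ran the other way: it was below background in both genotypes of those 3 pairs (7.06 to 7.19), with 8.66 in KO and 8.84 in wild type of fetal colon 2, 9.39 in KO and 9.52 in wild type of the pair labelled fetal small intestine 3, and 8.87, 10.47 and 9.14 in KO of adult colon pairs 1, 2 and 3, against 8.49, 9.25 and 8.99 in wild type. Gkn2, Gkn3, Anxa10 and Vsig1 were singled out after their values were seen, and the part of stomach tissue in the Tff2 values was not tested.

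**Figure D3:**
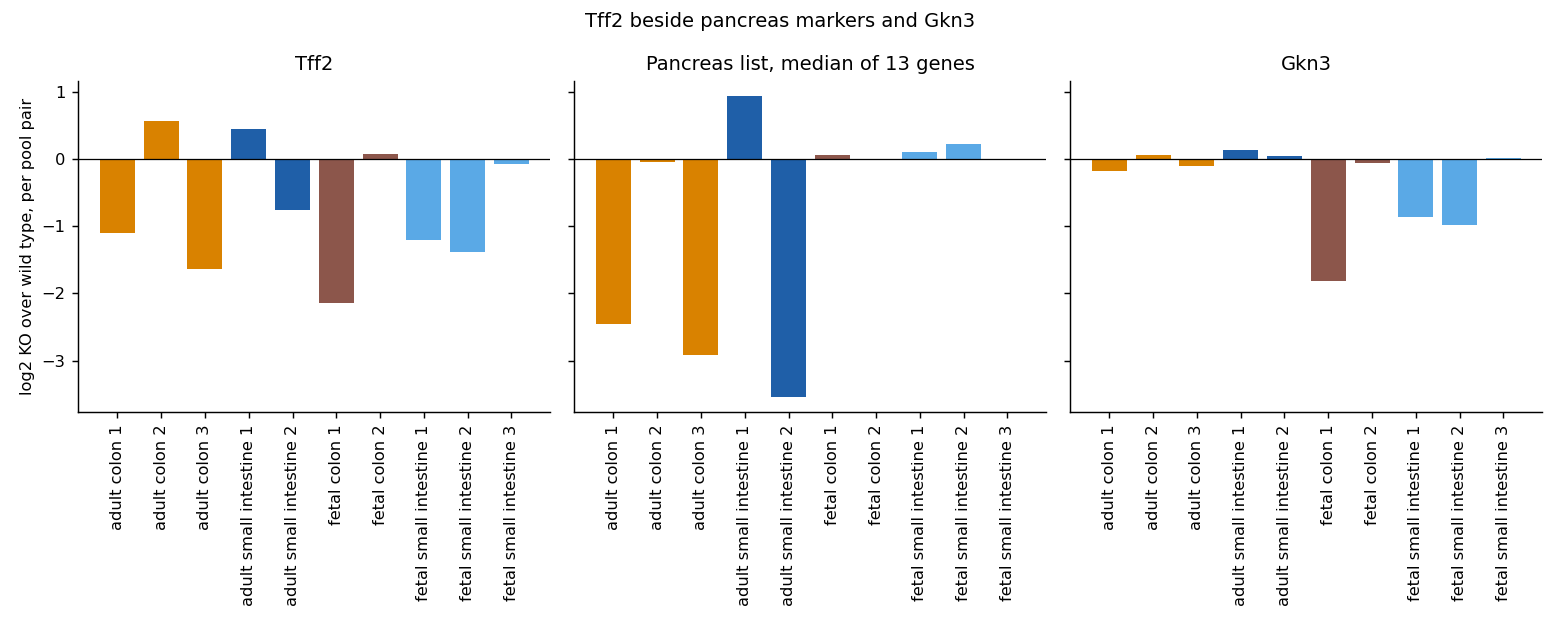
Log2 ratio of KO over wild type, per pool pair as labelled, of Tff2, of the median over 13 pancreatic genes and of Gkn3. Tff2 has the sign of the pancreas list in both adult small intestine pairs and in adult colon 1 and 3, and it is lower in KO beside Gkn3 in fetal colon 1 and fetal small intestine 1 and 2. It has the other sign than the list in adult colon 2 (0.56 against -0.05) and in those fetal pairs. In adult colon 1 and 3 and adult small intestine 2, where Tff2 is lower in KO, Gkn3 has -0.18, -0.11 and 0.04.

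Tff1 was detected in every pool on 20 of 20 arrays, at low intensity, and passed no test between KO and wild type. In adult colon its log2 intensity was 8.11, 7.74 and 7.81 in KO of pairs 1, 2 and 3, against 8.21, 7.99 and 7.64 in wild type. In adult small intestine it was 7.61 and 7.83 in KO, against 7.53 and 7.73 in wild type, and KO was the higher on 4 of 4 arrays. In the pairs labelled fetal colon it was 8.20 and 7.70 in KO, against 9.0 and 7.76 in wild type, and in those labelled fetal small intestine 8.23, 8.17 and 7.48 in KO, against 8.41, 8.46 and 7.55 in wild type. Tff1 was lower in KO on 9 of 10 fetal arrays, most so in the pair labelled fetal colon 1, where the log2 ratio was -0.81. The 3 fetal pairs with the highest Tff1 in wild type were those in which Tff2 was detected. The log2 ratio was -0.06 ± 0.13 in adult colon (adjusted p = 0.802), 0.09 ± 0.16 in adult small intestine (adjusted p = 0.894), -0.43 ± 0.16 in fetal colon (adjusted p = 0.635) and -0.15 ± 0.16 in fetal small intestine (adjusted p = 1.00), and none passed the test in limma. Averaged over the groups it was -0.14 ± 0.08 (adjusted p = 0.407). Without the slide of the pairs labelled fetal small intestine 3 and fetal colon 1, it was -0.06 in fetal colon and -0.24 in fetal small intestine.

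**Figure D4:**
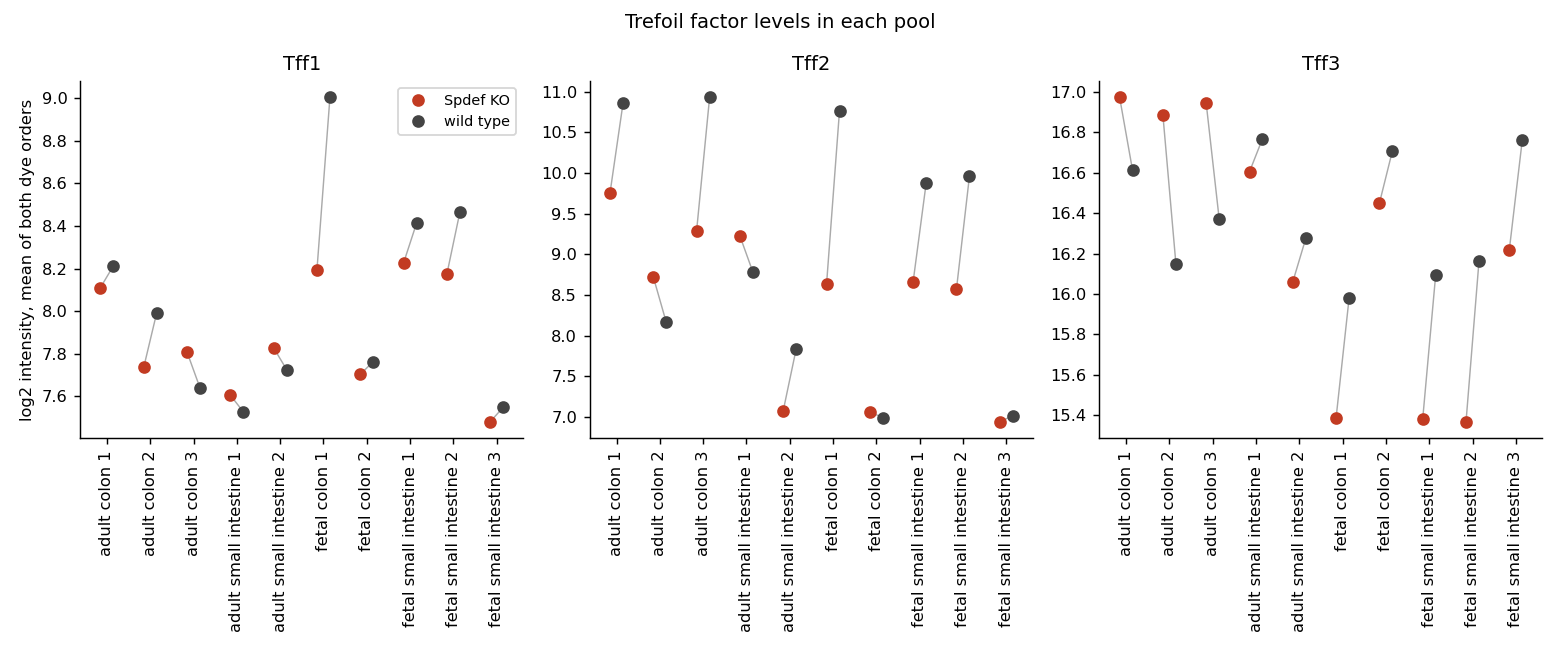
Log2 intensity of Tff1, Tff2 and Tff3 in the KO pool (red, left) and the wild type pool (grey, right) of each pair as labelled, as the mean of both dye orders, with a line joining the pools of a pair. The 3 vertical scales differ, since intensities of different probes cannot be set against each other. In adult colon all 3 KO pools of Tff3 lie above all 3 wild type pools.

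Wild type levels were also compared across tissues and stages. Mean log2 intensities of Tff3 in wild type were 16.38 ± 0.23 in adult colon (SD, n = 3), 16.52 ± 0.35 in adult small intestine (SD, n = 2), 16.34 ± 0.52 in fetal colon (SD, n = 2) and 16.45 ± 0.45 in fetal small intestine (SD, n = 2). By label, the order was adult small intestine, fetal small intestine, adult colon and fetal colon, and no neighbours differed beyond their spread. Tff2 averaged 9.98 ± 1.58 in adult colon, 8.31 ± 0.67 in adult small intestine, 8.88 ± 2.67 in fetal colon and 8.47 ± 2.05 in fetal small intestine, again with each group within the spread of the next. For Tff1 the means were 7.95 ± 0.29 in adult colon, 7.63 ± 0.14 in adult small intestine, 8.38 ± 0.88 in fetal colon and 7.99 ± 0.63 in fetal small intestine, with the same overlap. No trefoil factor passed the limma test between wild type adult colon and adult small intestine, where 2.97% of all genes did, with adult colon minus adult small intestine at -0.14 ± 0.31 for Tff3 (adjusted p = 0.839), 1.67 ± 1.38 for Tff2 (adjusted p = 0.557) and 0.32 ± 0.41 for Tff1 (adjusted p = 0.718). None passed between adult and fetal small intestine, where 8.44% of all genes did, or between adult and fetal colon, where 8.79% did. Between the groups labelled fetal colon and fetal small intestine, 0.00586% of all genes passed in wild type, that is 1 gene, and no trefoil factor did. Each labelled fetal group mixed pools with colon markers and pools with small intestine markers, so contrasts with a fetal group cannot decide a difference by region or stage. Wild type Tff3 was 16.71 and 16.76 in the pairs with colon markers, against 15.98, 16.10 and 16.16 in the others. For Tff2 these were 6.99 and 7.02, against 10.77, 9.87 and 9.96. The differences between these pairs were not tested.

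Genes that share a domain or a receptor with the trefoil factors were also listed. Over all genes, 9.59% passed between KO and wild type in adult colon and 0.398% in adult small intestine. The shares were 0.287% in fetal colon and 0.439% in fetal small intestine. With so few genes tested, the counts below give no result about either list. Of 4 other listed proteins with a trefoil domain, Sis, Mgam and Gaa were tested, and 0 of the 3 passed between KO and wild type in any group. Sis (sucrase-isomaltase) and Mgam (maltase-glucoamylase), which digest sugars at the brush border, were lower in wild type adult colon than in wild type adult small intestine, by log2 differences of -8.29 (adjusted p = 0.000458) and -2.45 (adjusted p = 0.00417), so their tissue pattern in adults was measured on the same arrays on which that of the trefoil factors did not pass. Of 7 listed genes for receptors and binding partners reported for trefoil peptides, 5 were tested. Cxcr4, a chemokine receptor through which Tff2 has been reported to signal, rose by 0.36 in KO adult colon (limma, adjusted p = 0.00403) and had 0.13 in adult small intestine, -0.10 in fetal colon and 0.01 in fetal small intestine, none of which passed. Its adult minus fetal difference was 0.29 (adjusted p = 0.0415), and 0.28 (adjusted p = 0.278) without the slide of the pairs labelled fetal small intestine 3 and fetal colon 1. Ackr3, Egfr, Cd74 and Itgb1 did not pass in any group.

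Neighbouring genes on chromosome 17 are given beside the trefoil factors because of the linkage with Spdef. In adult colon, 3 of the 11 other genes tested within 0.5 Mb of a trefoil factor probe rose in KO and 0 fell (27.3% called, against 9.59% of all genes). They were Dnah8, a dynein heavy chain of cilia and flagella, by 0.99 (adjusted p = 0.000119), Cbs, the cystathionine beta-synthase of sulfur amino acid metabolism, by 0.48 (adjusted p = 0.0020), and Pde9a, a phosphodiesterase that breaks down cyclic GMP, by 0.31 (adjusted p = 0.0369). Abcg1, a cholesterol transporter whose probe is the nearest of these to that of Tff3, had 0.29 (adjusted p = 0.0864), and Tmprss3, a membrane serine protease beside Tff1, had 0.11 (adjusted p = 0.174). The other 6 were Rsph1, Slc37a1, Wdr4, Ndufv3, Pknox1 and U2af1, and none of them passed. In adult small intestine 1 of the 11 rose, Dnah8, by 0.48 (adjusted p = 0.0311), and in the fetal groups 0 of the 11 passed.

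Within 5 Mb of Spdef on either side, 210 other genes were tested. In adult colon 19 of them rose and 21 fell in KO (19.0% called, against 9.59% of all genes). In adult small intestine 2 rose and 4 fell (2.86%, against 0.398%). In each fetal group 1 rose and 1 fell (0.952%, against 0.287% in fetal colon and 0.439% in fetal small intestine). Of the 47 between Spdef and Tff3, 7 rose in adult colon and 0 fell (14.9%, while 3.93% of all genes rose and 9.59% passed in either direction). One of these, Glo1, the glyoxalase that clears methylglyoxal, was singled out after its values were seen, as it rose in all 4 groups: by 1.45 in adult colon (adjusted p = 1.4e-05), by 1.26 in adult small intestine (adjusted p = 9.9e-05), by 0.72 in fetal colon (adjusted p = 0.0034) and by 0.65 in fetal small intestine (adjusted p = 0.0037). Without the slide of the pairs labelled fetal small intestine 3 and fetal colon 1 it had 0.71 in fetal colon (adjusted p = 0.0808) and 0.70 in fetal small intestine (adjusted p = 0.100). The gene of the window that fell in both fetal groups was Tpsg1, which fell in all 4 groups with the values given above and lies on the other side of Spdef. The probe of Glo1 is 2.88 Mb from that of Spdef and 0.532 Mb from that of Tff3, and the gene is known to lie in a segment that is duplicated in some inbred mouse strains. In mice made with targeted stem cells, the chromosome around the targeted gene can stay that of the stem cell strain. The labels give no strain, so an effect of such a segment on a trefoil factor and an effect of the loss of Spdef cannot be told apart in any group.

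**Figure D5:**
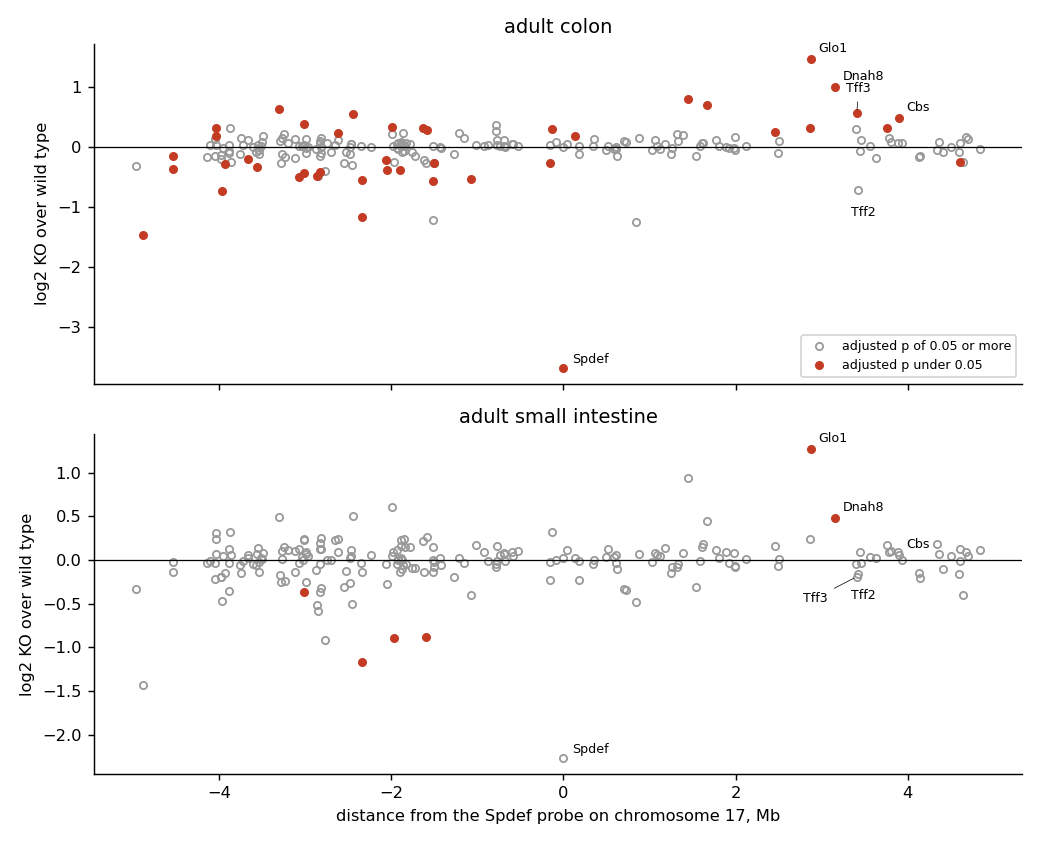
Log2 ratio of KO over wild type of the genes tested within 5 Mb of the Spdef probe on chromosome 17, by distance in Mb, in adult colon (top) and adult small intestine (bottom), with genes past the adjusted p of 0.05 filled. In adult colon Glo1, Dnah8, Tff3 and Cbs, between 2.88 and 3.90 Mb from Spdef, are filled and above 0.

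Across the 9 replicates, the log2 ratios of the trefoil factors followed each other weakly, with Pearson correlations of 0.41 between Tff1 and Tff2, 0.35 between Tff1 and Tff3 and 0.21 between Tff2 and Tff3. In wild type levels the correlation was 0.57 between Tff1 and Tff2, -0.72 between Tff1 and Tff3 and -0.44 between Tff2 and Tff3. These values describe 9 points that share groups, arrays and dyes, and no test was made. Among 8537 genes compared by the log2 ratio over the same 9 points, the named genes most like Tff3 were Mmp3, a secreted matrix metalloprotease (0.97), Hbegf, a ligand of the epidermal growth factor receptor (0.95), Atf3, a stress-induced transcription factor (0.95), and Rfc5, a subunit of the DNA clamp loader (0.95). Those most like Tff2 were Apoc2, an apolipoprotein that activates lipoprotein lipase (0.92), Dzip3, Foxn3, Itgav and Serinc5, and those most like Tff1 were Nmi (0.93), Osgin1, Efhd1 and Arsk. By wild type level, the named genes most like Tff1 were Ctns, the lysosomal cystine transporter (0.96), Mcoln1, a lysosomal cation channel (0.96), F2, Slc39a8 and Man2b2, and those most like Tff2 were Tmem87b (0.96), Ccl20, Adgrg7, Man2b1 and Pla1a. For Tff3 they were Psmg3 (0.88), Amph, Usp42 and Smc2, with lower correlations than for the other 2.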

How the data were processed

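Spots were extracted by the authors with Agilent Feature Extraction 9.5.3, per the file headers, and the deposited mean, background and processed signals are intensity values on a linear scale. Per the file headers, the deposited LogRatio column is on a log10 scale (red divided by green). The authors' series table was found to hold log2 ratios of KO over wild type, from its match to the scanner values, and its centring is not given in the sources used here. Per the labels, 500 ng of RNA was used per labelling.

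With limma 3.58.1 (R 4.3.3), background was corrected on the mean signals (normexp, offset 50) and loess was run within arrays, control spots having weight 0. Outlier spots were left out, signs were turned to KO over wild type, and dye swaps were averaged. A gene was tested, by its brightest kept probe, if in 1 genotype of some group the probe cleared the software's background flag on every array. One fit held 9 replicates and 4 groups (5 residual degrees of freedom), two-sided, with Benjamini-Hochberg adjustment over 17076 genes and a threshold of 0.05. Levels are log2 intensities after loess and Aquantile scaling. Errors marked ± are limma standard errors unless given as SD. Gene names come from the files, updated through RefSeq accessions or symbols.

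The members, gene lists and the naming rule (listed genes, neighbours within 0.5 Mb, 5 most correlated genes, clone names not printed) were chosen with earlier results of these data known. Alternatives are given in the closing section. The script was tested on simulated data.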

Additional observations from a re-analysis of the deposited data

Results flagged for a closer look

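The KO effect on Tff3 had opposite signs in every replicate of adult colon and of 3 other groups. The difference was -0.75 for adult small intestine minus adult colon, which did not pass the limma contrast (adjusted p = 0.119). It was 0.98 for adult colon minus fetal colon, which passed a contrast added after the data were seen (adjusted p = 0.0316), and 1.21 for adult colon minus fetal small intestine, which was not tested. The difference between the adult and the fetal groups, 0.72, passed its contrast (limma, adjusted p = 0.0231). For Tff1, every adult small intestine replicate was higher in KO and every fetal replicate lower, with a difference of 0.24 from fetal small intestine and of 0.53 from fetal colon. Neither was tested as such, and the difference for Tff1 between all adult and all fetal groups did not pass (adjusted p = 0.314).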

How the results depend on the processing

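The rise of Tff3 in adult colon stayed positive in all 17 alternative settings (0.53 to 0.57) and with each replicate left out in turn (0.47 to 0.65, adjusted p 0.0141 to 0.0398), but did not pass with each group fitted alone (0.56, adjusted p = 0.0580) or with median centring (0.53, adjusted p = 0.699). The stage difference of Tff3 stayed positive in 16 settings and did not pass with median centring (0.64, adjusted p = 0.999), with the deposited series table (0.72, adjusted p = 0.0650) or without the slide of the pairs labelled fetal small intestine 3 and fetal colon 1 (0.69, adjusted p = 0.175). Leaving out replicates gave 0.64 to 0.80. Tff3 in fetal small intestine, -0.65, passed with every array as an observation (-0.66, adjusted p = 0.00180), with pairs 1 and 2 separate (-0.68, adjusted p = 0.00390) and with the strict filter (-0.65, adjusted p = 0.0434), and ran from -0.75 to -0.54 without single replicates. With every array as an observation, Tff3 in adult colon minus adult small intestine (0.75, adjusted p = 0.0140), Tff3 in small intestine minus colon (-0.49, adjusted p = 0.0302) and Tff2 averaged over the groups (-0.67, adjusted p = 0.0479) also passed. The fall of Tff3 in the fetal pairs as 1 group (-0.54) and the adult colon minus fetal colon difference (0.98) did not pass without the slide (-0.51, adjusted p = 0.963, and 0.82, adjusted p = 0.232). Tff1 passed in no setting, but its values moved with the processing. They ran from 0.027 to 0.42 in adult small intestine, from -0.79 to -0.061 in fetal colon and from 0.16 to 0.72 in adult minus fetal. The cause of these shifts was not tested.

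Values that changed sign had not passed a test. With processed signals, Tff2 had 0.20 for adult colon minus adult small intestine and 1.17 for wild type adult minus fetal small intestine, and Tff3 had -0.049 for wild type adult minus fetal colon and 0.082 for wild type fetal colon minus small intestine. With the replicate block, the last 3 were 0.61, -0.056 and 0.035. Quantile scaling gave -0.017 for wild type Tff3, adult minus fetal colon, and separate pairs gave -0.071 for Tff2 and 0.0030 for Tff3 in wild type fetal colon minus small intestine. Without the slide, Tff2 had 0.078 in fetal colon. Small intestine minus colon was then -0.012 for Tff1 and -0.40 for Tff2, wild type adult minus fetal colon 0.18 for Tff1 and -0.33 for Tff3, and wild type fetal colon minus small intestine -0.68 for Tff1, -2.93 for Tff2 and 0.58 for Tff3.

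Without single replicates, KO effects ran from -0.18 to 0.033 for Tff1 in adult colon, from -0.76 to 0.44 for Tff2 in adult small intestine, from -2.14 to 0.078 for Tff2 in fetal colon, from -1.21 to 0.034 for Tff2 in adult colon minus adult small intestine, from -0.14 to 0.97 for Tff2 in adult minus fetal and from -0.10 to 1.01 for Tff2 in small intestine minus colon. Wild type differences ran from -0.39 to 0.10 for Tff3 in adult colon minus small intestine. In adult minus fetal small intestine they ran from -0.81 to 0.078 for Tff1, -1.61 to 1.29 for Tff2 (0.32 without adult small intestine 2) and -0.24 to 0.39 for Tff3 (-0.17 without adult small intestine 1), in adult minus fetal colon from -1.06 to 0.18, -0.78 to 2.99 and -0.33 to 0.40, and in fetal colon minus small intestine from -0.23 to 1.01, -1.48 to 2.30 and -0.47 to 0.26.

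Replicate numbers did not pair pools across groups: deviations correlated at -0.07 to 0.16 for pools of the same number (10 pairs) and at -0.16 to 0.16 for others. With the replicate block Tff3 in adult colon had 0.56 (adjusted p = 0.00918). Genes called in adult colon numbered 1638, and 993 with processed signals, 57 with median centring, 165 with the group alone, 3048 with every array, 975 with a trended and robust prior, 584 with the series table, 780 without the slide and 317 (without adult colon 1) to 1670 without single replicates. For adult minus fetal they numbered 184, and 0 with median centring (limma; 536 at an unadjusted p under 0.05), 1312 with every array, 20 with the trended prior, 668 with separate pairs, 1 without the slide, 122 with the replicate block and 14 (without fetal colon 2) to 291 without single replicates. Tff2 did not enter the strict filter.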
